A study of Homo sapiens with 6 samples.

Results

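The Wnt ligands, their receptors and their antagonists were examined in SH-SY5Y, a human neuroblastoma cell line. The set was chosen by gene name and holds the protein-coding WNT, FZD, DKK, SFRP, LGR4 to LGR6, ROR, AXIN, TCF7 and NKD genes with LRP5, LRP6, RYK, LEF1, PORCN, ZNRF3 and NOTUM. It comprised 50 of the 28752 genes in the table. R-spondin genes and RNF43, which the same names would include, were not analysed here. A further 2 rows with matching names were not protein-coding and were left out.

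RNA was taken 72 h after transfection with OE-NC or with OE-circSHPRH, and 3 libraries per group were sequenced. OE and NC are not written out in the labels, so treating OE-NC as the control group is a reading of the name. The circular RNA circ-SHPRH derives from the gene SHPRH, and a peptide encoded by it is the subject of the series title. The labels do not say that libraries of a group came from separate cultures, so p-values measure only the spread between these libraries, which may be technical.

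Wnt proteins are secreted lipid-modified ligands. In the canonical branch they bind a Frizzled receptor with LRP5 or LRP6, which frees beta-catenin from a destruction complex built on AXIN1 or AXIN2, and beta-catenin then acts with LEF1 or TCF factors in the nucleus. R-spondins, bound by LGR4 to LGR6, hold back the ligases ZNRF3 and RNF43 that remove Frizzled receptors, while DKK, SFRP and NOTUM proteins act against the ligands or co-receptors outside the cell. ROR1, ROR2 and RYK serve branches that need no beta-catenin. In the neural crest, from which neuroblastoma arises, Wnt signalling takes part in the formation of the crest cells.

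Library totals ran from 15645261 to 17591718 counts. SHPRH was at 23.3 to 27.0 CPM (counts scaled to library depth) in OE-NC and at 64.3 to 82.0 CPM in OE-circSHPRH. Adrenergic neuroblastoma markers summed to 3970 to 4190 TPM (counts per gene length, scaled to the same sum in each library) over the 6 libraries, with INSM1 the only one of 11 below 1 TPM. The 5 fibroblast markers summed to 156 to 161 TPM in OE-NC and to 167 to 196 TPM in OE-circSHPRH, mostly from LUM, while COL1A2 was at 0.00775 TPM. The mesenchymal neuroblastoma markers summed to 477 to 493 TPM in OE-NC and to 479 to 508 TPM in OE-circSHPRH, Schwann cell precursor markers to 9.17 to 14.1 TPM and epithelial markers to 2.32 to 3.96 TPM over all libraries. None of the markers passed the test between groups. Of the 7 mesenchymal markers tested, 4 had an unadjusted p under 0.05 and separate groups, NOTCH3, CD44 and FOSL1 higher and YAP1 lower in OE-circSHPRH. The same held for 2 of 10 adrenergic markers tested (DBH and PHOX2A) and 1 of 4 fibroblast markers (LUM), all higher. It held for 0 of the Schwann cell precursor and epithelial markers tested. Over all genes, 10.3% had such a p and 15.6% had separate groups. The part of these markers in the values below was not tested. Mitochondrially encoded genes took 10.2% to 10.3% of the counts in 3 libraries (OE-circSHPRH replicate 3, OE-NC replicates 1 and 2), and 11.4% to 12.1% in the others.

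SH-SY5Y cells held RNA of many Wnt receptors and antagonists but of few of the 14 Wnt ligands in the table. On TPM, the scale on which levels are compared between genes, 17 of the 50 genes averaged at least 10 TPM over the 6 libraries, 14 were from 1 to 10 TPM, 8 from 0.1 to 1 TPM and 11 below 0.1 TPM. LGR5 and DKK1 stood above all others. The 3 LGR receptor genes together averaged 378 ± 9.65 TPM (SD, n = 3) in OE-NC, the 9 secreted antagonist genes 380 ± 6.24 TPM, the 5 co-receptor genes 141 ± 1.92 TPM, the 9 Frizzled genes 116 ± 5.14 TPM and the 14 WNT genes 12.8 ± 1.16 TPM. The WNT genes thus had the lowest sum among these 5 groups in every library. Family members without a protein-coding row in the table, such as WNT1, WNT7A and FZD10, are not in these sums. In bulk RNA, fewer cells with a transcript and less of it per cell cannot be told apart.

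**Figure D1:**
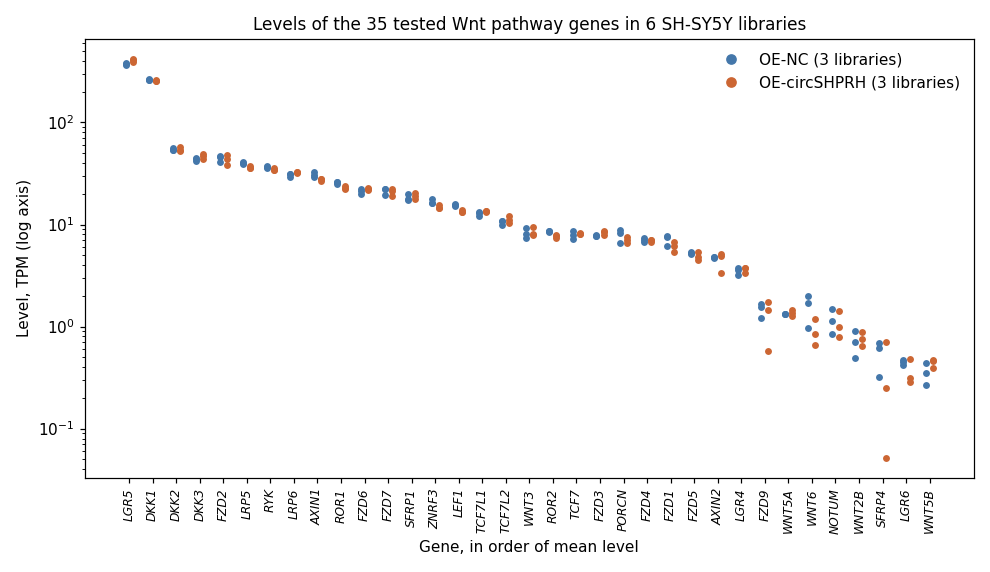
Level of each of the 35 tested genes in each library, in TPM on a log axis, ordered by mean level, with OE-NC in blue and OE-circSHPRH in orange. LGR5 (363.1 to 420.5 TPM) and DKK1 (252.6 to 264.5 TPM) lie above the other genes, and WNT3 is the highest WNT gene.

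No gene of the set passed the test between the groups. With edgeR's quasi-likelihood test and a threshold of 0.05 on the Benjamini-Hochberg adjusted p over 16458 genes, 0 of the 35 tested passed. Over all genes 0.188% passed, 0.128% higher and 0.0608% lower in OE-circSHPRH. limma-voom called 0 of the 35, beside 35 of 16458 genes in all. The filter of DESeq2 on the mean count left an adjusted p for 9 of the 35 and for 5928 genes in all. DESeq2 called 1 of the 9, LGR5, beside 79 of the 5928. At an unadjusted p under 0.05, 7 of the 35 passed (20%), 3 with a higher and 4 with a lower mean in OE-circSHPRH. The share over all genes was 10.3%, 5.33% higher and 5.02% lower. The ranges of the groups were separate for 9 of the 35 (25.7%), 3 with OE-circSHPRH higher and 6 with it lower. Over all genes that held for 15.6%, 7.99% higher and 7.57% lower. Of the 35 log2 fold changes 16 were positive, beside 50.8% over all genes. The median log2 fold change was -0.0081 over the 35, with a sign that varied with the library left out, and 0.0019 over all genes tested. These shares are descriptions, since the set was not tested as a whole.

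The limits that the data set on a change depended on the level. For the 17 genes of at least 10 TPM, standard errors of the log2 fold change were 0.041 to 0.086. Their estimates ran from -0.18 to 0.16, and the intervals of 2 standard errors stayed between 0.797-fold, for LEF1, and 1.22-fold, for TCF7L2. For the 14 genes of 1 to 10 TPM the intervals reached from 0.330-fold (WNT6) to 1.52-fold (NOTUM). For the 4 tested genes below 1 TPM they reached from 0.292-fold (SFRP4) to 2.31-fold (WNT5B), and a difference of 2-fold lay within the intervals of SFRP4, LGR6 and WNT5B.

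**Figure D2:**
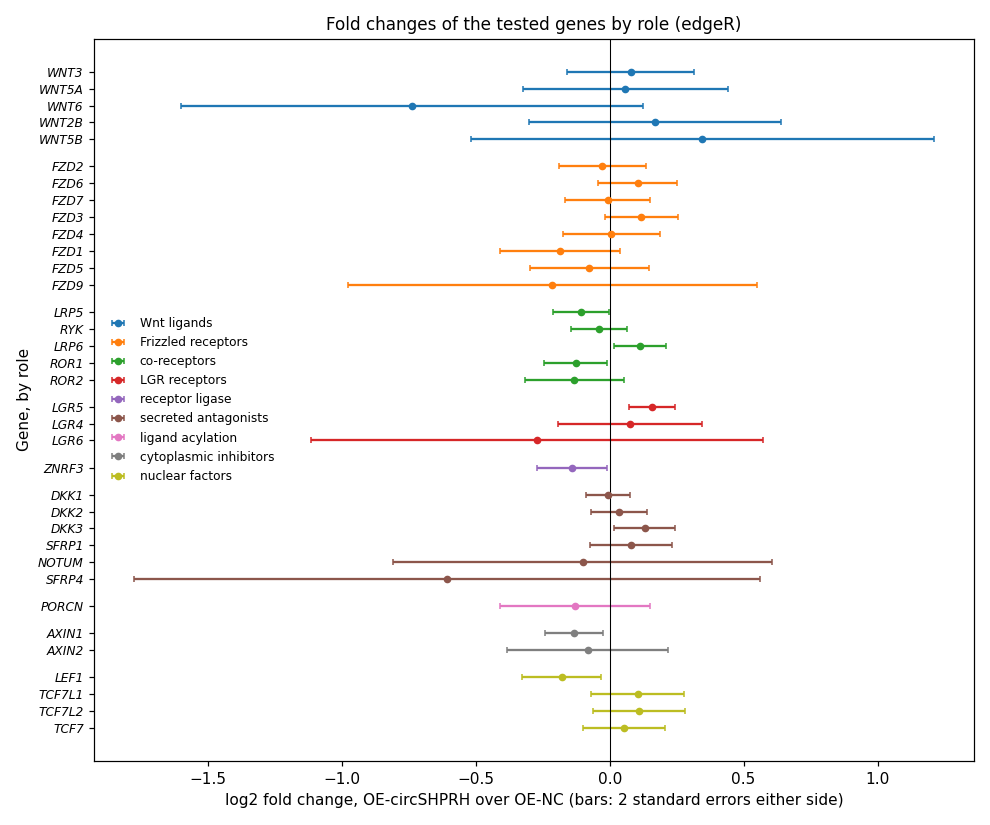
Log2 fold change of OE-circSHPRH over OE-NC for the 35 tested genes, grouped and coloured by role, with bars of 2 standard errors either side. Intervals are narrow for LGR5, DKK1 and the co-receptors and wide for WNT6, SFRP4 and WNT5B; 0 of the 35 passed the edgeR test.

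Among the ligands, WNT3, which acts through beta-catenin, was the highest. WNT3 (ENSG00000108379, chromosome 17, 46762506 to 46833154, minus strand) had 13.4, 10.6 and 11.9 CPM in the OE-NC libraries and 12.1, 11.8 and 13.9 CPM in the OE-circSHPRH libraries. The groups overlapped, and WNT3 made up 59.9% to 68.5% of the summed TPM of the 14 WNT genes. WNT5A (chromosome 3, 55465715 to 55490539), known for signalling without beta-catenin through the ROR receptors, had 3.23, 3.25 and 3.37 CPM in OE-NC and 3.23, 3.42 and 3.60 CPM in OE-circSHPRH, which also overlapped. Log2 fold changes were 0.08 (SE 0.12) for WNT3 and 0.06 (SE 0.19) for WNT5A. WNT6, WNT2B and WNT5B averaged 1.23, 0.730 and 0.395 TPM and did not pass either.

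The other 9 WNT genes were at or near the counting floor and were not tested. WNT4 had 14 counts in the 6 libraries together, WNT8B 12, WNT9A 11, WNT10A 10, WNT11 9, WNT10B 5, WNT16 5, WNT8A 4 and WNT9B 3. WNT8B had 0, 1 and 1 counts in OE-NC and 2, 2 and 6 counts in OE-circSHPRH, too few for a fold change. Outside the ligands, SFRP2 (19 counts in all), NKD1 (13), FZD8 (10), NKD2 (9), SFRP5 (4) and DKK4 (4) were likewise left out of the test. The highest count of any of these 15 genes in a library was 11, for SFRP2 in OE-circSHPRH replicate 3. PORCN (chromosome X, 48508962 to 48520814), the acyltransferase that attaches the lipid Wnt proteins need, had 8.73, 8.26 and 6.80 CPM in OE-NC and 7.35, 6.78 and 7.56 CPM in OE-circSHPRH, with overlap between the groups.

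The Frizzled receptors bind Wnt proteins at the cell surface, and 8 of the 9 genes were tested. FZD2 (chromosome 17, 44557459 to 44559570) was the highest at 44.0 ± 3.68 TPM (SD over the 6 libraries), and FZD6 and FZD7 followed at 21.8 ± 1.02 and 21.0 ± 1.47 TPM. FZD2 had 32.1, 33.4 and 29.8 CPM in OE-NC and 28.2, 34.6 and 30.8 CPM in OE-circSHPRH, so the groups overlapped. FZD6 (chromosome 8, 103298433 to 103332866) had 26.8, 29.2 and 30.9 CPM in OE-NC and 32.2, 30.6 and 30.7 CPM in OE-circSHPRH. FZD7 (chromosome 2, 202034587 to 202038445) had 28.2, 28.6 and 26.0 CPM and then 28.3, 25.0 and 28.9 CPM. The ranges of FZD6 and FZD7 over the 6 libraries overlapped, so their order is not separated. FZD3, FZD4, FZD1 and FZD5 lay between 5.08 and 8.02 TPM and FZD9 at 1.37 TPM. Across the 8, log2 fold changes ran from -0.21 for FZD9 to 0.12 for FZD3, and each gene overlapped between the groups.

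Of the 5 co-receptor genes none passed the test, and in 4 (LRP5, LRP6, ROR1 and ROR2) the groups did not overlap, beside 15.6% of all genes. LRP5 and LRP6, the paired co-receptors of the canonical branch, lay on opposite sides. LRP5 (ENSG00000162337, chromosome 11, 68312609 to 68449275, plus strand) had 82.3, 84.2 and 82.0 CPM in OE-NC and 80.4, 76.0 and 74.0 CPM in OE-circSHPRH. LRP6 (ENSG00000070018, chromosome 12, 12116025 to 12267012, minus strand) had 106, 101 and 111 CPM in OE-NC and 116, 114 and 115 CPM in OE-circSHPRH. Every OE-circSHPRH library was thus below OE-NC for LRP5 and above it for LRP6. Log2 fold changes were -0.11 (SE 0.052, edgeR adjusted p = 0.483) and 0.11 (SE 0.048, edgeR adjusted p = 0.407). Within the libraries of low mitochondrial share the differences were -0.17 and 0.14, and within those of high share -0.07 and 0.05, each with a single library on one side.

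The receptors of the other branches were next. ROR1 (ENSG00000185483, chromosome 1, 63774022 to 64181498, plus strand), a receptor of WNT5A, had 57.7, 55.6 and 60.2 CPM in OE-NC and 55.0, 51.9 and 51.9 CPM in OE-circSHPRH. The OE-circSHPRH libraries were all lower, with an estimate on the log2 scale of -0.13 (SE 0.059, edgeR adjusted p = 0.461). ROR2, its paralogue, averaged 8.15 TPM against 24.3 TPM for ROR1, with every OE-circSHPRH library below OE-NC and an estimate of -0.13 (SE 0.093). RYK (chromosome 3, 134065303 to 134250744), a further Wnt receptor, had 97.5, 95.2 and 104 CPM in OE-NC and 96.1, 100 and 91.9 CPM in OE-circSHPRH, which overlapped.

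ROR1 shares its locus with ROR1-AS1, a noncoding gene on the opposite strand, which did pass. ROR1-AS1 (ENSG00000223949, chromosome 1, 64094442 to 64171297) had 14.2, 13.9 and 13.6 CPM in OE-NC and 18.8, 19.4 and 19.4 CPM in OE-circSHPRH. It rose 1.38-fold (log2 fold change 0.47, SE 0.092, edgeR adjusted p = 0.0409), and it was chosen for mention after its values were seen. The call was lost in 5 of the 6 fits that left out a library, where the adjusted p ran from 0.0199 without OE-circSHPRH replicate 3 to 0.235 without OE-NC replicate 1. The 2 genes overlap over 18.9% of the ROR1 span but share no exonic base in GENCODE 29. Whether the authors' counting used strand is not known from the labels or the table. Without strand, reads from ROR1 introns that fall in ROR1-AS1 exons cannot be told from ROR1-AS1 reads, even if only exons were counted. The part of such reads was not tested.

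LGR5, a receptor for R-spondins and a known target of beta-catenin in intestinal stem cells, had the highest level of the set and came nearest to passing. LGR5 (ENSG00000139292, chromosome 12, 71439770 to 71586310, plus strand) averaged 392 TPM, rank 178 among 13056 protein-coding genes tested. It had 664, 637 and 677 CPM in OE-NC and 765, 744 and 697 CPM in OE-circSHPRH. All 3 OE-circSHPRH libraries were above all 3 OE-NC libraries, with OE-circSHPRH replicate 3 the nearest to OE-NC. The log2 fold change was 0.16 (SE 0.043), or 1.12-fold, with an edgeR adjusted p = 0.155. In the authors' deposited table LGR5 has a log2 fold change of 0.16 and an adjusted p of 0.0311. DESeq2 run here gave an adjusted p = 0.0496 over its 5928 genes, and its p before adjustment, 0.000644, was also below that of edgeR, 0.00159.

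Leaving out OE-circSHPRH replicate 3 brought the edgeR adjusted p of LGR5 to 0.00578 with a log2 fold change of 0.20. In that fit 311 of 16811 genes passed, against 31 of 16458 with all libraries. Leaving out OE-NC replicate 2 brought the edgeR adjusted p of LGR5 to 0.522 with 0.13, and 11 of 16802 genes passed. Within the libraries of low mitochondrial share the difference was 0.10, and within those of high share it was 0.16. LGR5 made up 98.9% to 99.1% of the summed TPM of the LGR genes. LGR4 (chromosome 11, 27365961 to 27472775) had 7.47, 7.92 and 7.02 CPM in OE-NC and 8.29, 8.26 and 7.08 CPM in OE-circSHPRH, which overlapped, and LGR6 averaged 0.403 TPM. ZNRF3 (ENSG00000183579, chromosome 22, 28883592 to 29057487), the ligase that removes Frizzled receptors and is held back by R-spondin with an LGR receptor, had 41.1, 38.0 and 38.7 CPM in OE-NC and 35.3, 34.8 and 36.7 CPM in OE-circSHPRH. Its OE-circSHPRH libraries were all lower, with an estimate on the log2 scale of -0.14 (SE 0.065, edgeR adjusted p = 0.462).

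**Figure D3:**
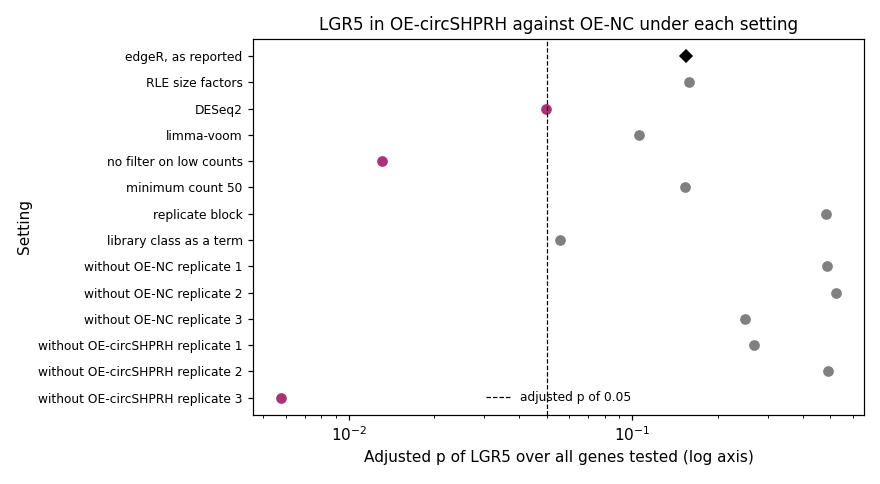
Adjusted p of LGR5, OE-circSHPRH against OE-NC, under each setting on a log axis; the diamond is the edgeR fit as reported (0.155), the dashed line marks 0.05 and purple points lie below it. LGR5 passed in 3 of 13 alternatives: with DESeq2, without a filter on low counts and without OE-circSHPRH replicate 3. More genes passed in these 3 settings: 79 of 5928, 194 of 28752 and 311 of 16811, in that order, against 31 of 16458 as reported.

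The secreted antagonists were dominated by DKK1, which binds LRP5 and LRP6 and keeps Wnt proteins from using them. DKK1 (ENSG00000107984, chromosome 10, 52314296 to 52318042, plus strand) averaged 259 TPM, rank 301 among protein-coding genes, and held 67.2% to 69.5% of the summed TPM of the 9 antagonists. It was at 193, 193 and 198 CPM in OE-NC and at 193, 194 and 193 CPM in OE-circSHPRH. The groups overlapped and the log2 fold change was -0.0065 (SE 0.041), with an interval of 2 standard errors from -0.09 to 0.08. DKK1 shares 212 exonic bases, 9.61% of its exons, with PRKG1-AS1 on the opposite strand, a gene with 320 counts in all libraries against 19404 for DKK1.

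DKK2 and DKK3 followed, and their levels did not overlap each other in TPM. DKK2 (chromosome 4, 106921802 to 107283806), which also binds LRP6, had 80.2, 77.5 and 79.2 CPM in OE-NC and 79.2, 85.0 and 78.4 CPM in OE-circSHPRH. These overlapped, and the log2 fold change was 0.03 (SE 0.053). DKK3 (ENSG00000050165, chromosome 11, 11963106 to 12009769), a divergent family member, had 74.3, 70.0 and 75.7 CPM in OE-NC and 76.5, 85.2 and 79.1 CPM in OE-circSHPRH. Every OE-circSHPRH library was above OE-NC for DKK3, with an estimate on the log2 scale of 0.13 (SE 0.056, edgeR adjusted p = 0.426). SFRP1, a Frizzled-related protein that binds Wnt proteins, averaged 18.7 TPM and NOTUM, the esterase that takes the lipid off Wnt proteins, 1.11 TPM. SFRP4 averaged 0.439 TPM and shares 38.4% of its span, though no exonic base, with EPDR1 on the opposite strand.

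AXIN1, the scaffold of the destruction complex, stood well above AXIN2, which beta-catenin itself induces in many tissues. AXIN1 (ENSG00000103126, chromosome 16, 287440 to 352673, minus strand) averaged 29.3 TPM and AXIN2 (chromosome 17, 65528563 to 65561647) 4.60 TPM. AXIN1 had 76.3, 81.5 and 75.2 CPM in OE-NC and 72.7, 68.8 and 71.0 CPM in OE-circSHPRH. The OE-circSHPRH libraries were all lower, with an estimate on the log2 scale of -0.13 (SE 0.054, edgeR adjusted p = 0.382). AXIN2 had 8.16, 8.37 and 8.56 CPM in OE-NC and 5.998, 8.775 and 9.0 CPM in OE-circSHPRH. Here a single library, OE-circSHPRH replicate 1, was low and the other two were above OE-NC, and the estimate was -0.08 (SE 0.15).

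The 4 genes of the nuclear factors that bind beta-catenin were all tested. LEF1 averaged 14.5 TPM, TCF7L1 13.1 TPM, TCF7L2 10.8 TPM and TCF7 8.07 TPM, with overlap over the libraries between LEF1 and TCF7L1, while TCF7L1 lay above TCF7L2 and TCF7L2 above TCF7 in range. LEF1 (ENSG00000138795, chromosome 4, 108047545 to 108168956, minus strand) had 28.2, 27.7 and 27.9 CPM in OE-NC and 25.6, 24.6 and 23.8 CPM in OE-circSHPRH. Its OE-circSHPRH libraries were all lower, with an estimate on the log2 scale of -0.18 (SE 0.074, edgeR adjusted p = 0.384). TCF7L1 (chromosome 2, 85133410 to 85310388), often a repressor of Wnt targets, had 17.8, 19.0 and 20.0 CPM in OE-NC and 20.5, 20.6 and 20.0 CPM in OE-circSHPRH. TCF7L1, TCF7L2 and TCF7 overlapped between the groups, with log2 fold changes of 0.10 (SE 0.086), 0.11 (SE 0.086) and 0.05 (SE 0.077).

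**Figure D4:**
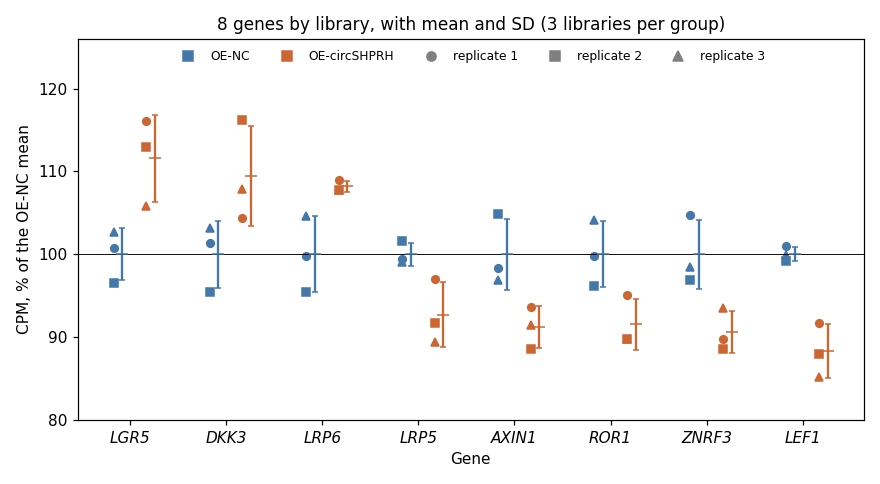
CPM of 8 genes in each library as a percentage of the OE-NC mean of the gene, with replicate number by symbol and mean and SD (n = 3) beside the points; the axis does not start at 0. LGR5, DKK3 and LRP6 lie above 100% and LRP5, AXIN1, ROR1, ZNRF3 and LEF1 below it in all 3 OE-circSHPRH libraries. The 8 are the 7 genes with an unadjusted edgeR p under 0.05 and LRP5, so their separation follows in part from this choice. ROR2 was also separate and is not shown. Groups were separate for 25.7% of the 35 tested genes, beside 15.6% of all genes. With edgeR none of the 8 passed, while DESeq2 called LGR5.

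Several genes overlap others, and without strand reads from the shared bases cannot be told apart. The spans of 20 of the 50 genes shared bases with another gene of the table, and those of 7 over at least 10% of their length. In GENCODE 29, 9 of the 50 shared exonic bases, all with a gene on the opposite strand. The largest shares of exons were those of WNT2B with ST7L (21.2%) and of FZD4 with PRSS23 (18.9%). ST7L had 1338 counts against 310 for WNT2B, and PRSS23 had 113 against 1758 for FZD4. LGR5 shared 3.96% of its exons with AC078860.1, which had 296 counts in all against 69693, and LEF1 shared 5.2% with LEF1-AS1, which had 127 against 2636. TCF7 shared 2.09% with SKP1, whose 12279 counts exceeded its own 2753.

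Promoter sequence was looked at because several genes of the set are known targets of the beta-catenin and TCF complex. RefSeq promoters of GRCh38.p14, 250 bases before to 50 bases after the start, were matched for 34 of the 50 genes, LGR5, AXIN2 and ZNRF3 not among them. In 20 of the 34 the RefSeq start lay within 100 bases of the deposited 5′ end of the gene. In others it lay far from it, as in SFRP4 (108878 bases), so the window need not be the promoter in use. The motif CTTTGAT or CTTTGAA, a core of the TCF/LEF recognition sequence, was searched on both strands. It occurred in 1 of 34 promoters (2.94%), that of DKK1, beside 6.98% of the 27305 promoters in the table. The shorter CTTTGA, which lies within both, also occurred in 1 of 34 (2.94%), beside 13.1% of all. The match in DKK1 begins 95 bases before the start on the gene's strand, and no match elsewhere says only that these letters are not in these windows.

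Shown here are 3 promoters whose RefSeq start lay within 100 bases of the deposited end of the gene, and they show the range of base composition. DKK1 is shown for its motif, in capitals. LRP5 has the highest GC content of the tested genes, 86.7%, and WNT8B, nearly without counts, the lowest of all 34, 45.7%. They lie at chr10:52314031-52314330, plus strand, chr11:68312341-68312640, plus strand, and chr10:100462759-100463058, plus strand, in that order, and are written 5′ to 3′.
DKK1: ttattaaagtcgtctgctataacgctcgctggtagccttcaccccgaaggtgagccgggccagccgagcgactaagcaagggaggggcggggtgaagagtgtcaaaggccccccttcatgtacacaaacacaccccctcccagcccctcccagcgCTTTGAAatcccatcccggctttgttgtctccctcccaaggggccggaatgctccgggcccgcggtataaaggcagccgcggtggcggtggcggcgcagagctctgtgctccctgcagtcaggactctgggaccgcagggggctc
LRP5: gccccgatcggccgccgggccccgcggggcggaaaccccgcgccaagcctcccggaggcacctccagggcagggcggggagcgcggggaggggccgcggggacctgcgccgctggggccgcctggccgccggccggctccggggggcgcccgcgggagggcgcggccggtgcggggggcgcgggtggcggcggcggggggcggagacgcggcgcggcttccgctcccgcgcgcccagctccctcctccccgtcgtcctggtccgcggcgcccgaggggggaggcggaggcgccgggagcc
WNT8B: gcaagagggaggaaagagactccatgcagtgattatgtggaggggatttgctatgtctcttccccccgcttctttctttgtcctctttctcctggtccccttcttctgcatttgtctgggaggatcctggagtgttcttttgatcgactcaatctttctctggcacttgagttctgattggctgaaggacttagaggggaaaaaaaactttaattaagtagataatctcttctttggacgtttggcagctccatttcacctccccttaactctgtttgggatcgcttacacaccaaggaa

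The median GC content was 69.0% over the 23 promoters of tested genes and 76.7% over the 11 of genes not tested, beside 58.3% over all promoters in the table. The ratio of observed to expected CpG had medians of 0.85, 0.68 and 0.58, in that order. It was 0.66 in DKK1, 0.93 in LRP5 and 0.26 in WNT8B. These are descriptions with no test.

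Other genes of the pathway gave the same count of 0. Of 110 genes in 4 lists, 100 were in the table and 89 were tested. Of the 89, 0 passed at an edgeR p adjusted over all genes tested, beside 0.188% of all genes. At an unadjusted p under 0.05, 9 of the 89 had a higher and 4 a lower mean in OE-circSHPRH (14.6%, beside 10.3% of all genes), and the median log2 fold change was 0.02. limma-voom also called 0 of the 89, and DESeq2 0 of the 58 for which it gave an adjusted p. Over all genes limma-voom called 35 of 16458 and DESeq2 79 of 5928. CTNNB1, which encodes beta-catenin, had 261, 256 and 252 CPM in OE-NC and 255, 262 and 264 CPM in OE-circSHPRH, with a log2 fold change of 0.02 (SE 0.040).

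By list, the values were as small. Of 35 genes of intracellular beta-catenin signalling 18 were positive and 17 negative, with a median of 0.0008. The smallest p values there belonged to the corepressor gene TLE4 (log2 fold change 0.10, SE 0.042) and the casein kinase gene CSNK1G1 (0.13, SE 0.056). Of 12 genes of Wnt secretion and extracellular modifiers 8 were positive, led by TPBG, an inhibitor at the cell surface (0.13, SE 0.048), and DRAXIN (0.28, SE 0.15). Of 24 genes of planar polarity and the calcium branch 18 were positive, led by the phospholipase gene PLCB4 (0.14, SE 0.048) and the kinase gene MAPK8 (0.11, SE 0.050). PLCB4 passed once OE-circSHPRH replicate 3 was left out, with an edgeR adjusted p of 0.0311, against 0.282 with all libraries. In that fit 311 of 16811 genes passed, against 31 of 16458 with all libraries.

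The list of beta-catenin target genes outside the set held 18 tested genes, of which 4 had a higher and 3 a lower mean at an unadjusted p under 0.05 (38.9%, beside 10.3% of all genes). The list is broad, its genes answer to many other signals, and 2 of the 7, CD44 and FOSL1, are also among the mesenchymal markers above. SOX9, a transcription factor of the neural crest and other tissues, had 8.92, 10.4 and 9.36 CPM in OE-NC and 12.6, 13.3 and 11.3 CPM in OE-circSHPRH, with an estimate on the log2 scale of 0.37 (SE 0.12, edgeR adjusted p = 0.240). MYC, a growth-promoting transcription factor, had 179, 178 and 186 CPM in OE-NC and 165, 170 and 167 CPM in OE-circSHPRH, with -0.12 (SE 0.043, edgeR adjusted p = 0.327). The groups did not overlap for either gene, which follows in part from their choice as the 2 smallest p values of the list. Over the 18 genes, 5 were separate with OE-circSHPRH higher and 2 with it lower (38.9%, beside 15.6% of all genes).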

How the data were processed

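Gene counts were analysed for 3 OE-NC and 3 OE-circSHPRH libraries of SH-SY5Y cells. The deposited table gives raw read counts per gene and library. The authors also deposited normalized counts, a signal equal to the count over 1 size factor per library, and FPKM, equal to the count per gene length up to a constant per library; both relations were checked on the table and neither column was tested. Of the values deposited by the authors for their own comparison, the log2 fold change and the adjusted p-value are quoted, for LGR5 only. The deposited gene length, another column by the authors, served for TPM. For the aligner, the counting tool and the use of strand no source is at hand. The submitters' processing notes name another build, but all 50 genes had the coordinates of GENCODE 29 on GRCh38, and those are printed.

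The filter on low counts was filterByExpr in edgeR 4.0.16 (minimum count 10, minimum total 15), which left 16458 genes with 99.8% of the counts. Libraries were scaled with TMM factors and compared with the quasi-likelihood F-test, two-sided, group as the only term, with Benjamini-Hochberg adjustment at 0.05. The SE of a log2 fold change is its size over the square root of F. Positive values are higher in OE-circSHPRH. CPM is scaled with TMM factors and TPM has the same sum in every library. One count equals 0.0568 to 0.0639 CPM. DESeq2 1.42.0, limma 3.58.1 and other filters, scalings and terms were alternatives, and the code was tested on simulated counts.

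The genes and lists were chosen with earlier results of these data known. Values by library are given for genes with an unadjusted p under 0.05, the 12 highest in TPM and the 2 highest of each role, and in the lists of other pathway genes the 2 smallest p values are named with CTNNB1. SOX9 and MYC follow that rule. Protein sequence features were planned and were not analysed here.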

Additional observations from a re-analysis of the deposited data

How the results depend on the processing

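Of the 35 genes tested, 0 passed with RLE size factors, limma-voom, a minimum count of 50, the replicate block or a term for mitochondrial share (low or high). With DESeq2 the count was 1, of 9 genes given an adjusted p (3 had an unadjusted p under 0.05), and without a filter on low counts it was 1, both LGR5 (adjusted p of 0.0496 and 0.0131). Leaving out a library gave 0 to 1, the 1 being LGR5 without OE-circSHPRH replicate 3. Among the other pathway genes those fits gave 0 to 1, the 1 being PLCB4 (adjusted p of 0.0311) without the same library, and the other alternatives gave 0. The median log2 fold change was -0.0161 without a filter, 0.00278 with a minimum count of 50 and -0.0273 to 0.0278 with a library left out, so its sign is not settled. Over all genes the count of 31 became 79 with DESeq2, 194 without a filter, 171 with the term for mitochondrial share and 6 with the replicate block. It was 5 (without OE-circSHPRH replicate 2) to 311 (without OE-circSHPRH replicate 3) with a library left out. Causes were not tested. Same-numbered libraries had correlations of deviations of -0.044, -0.027 and -0.11, beside -0.0405 to 0.0845 for other pairs. No pairing by number was seen, though 3 libraries per group cannot exclude one. The replicate block took ROR1-AS1 to an edgeR adjusted p of 0.231. Of the 35 log2 fold changes, 25 kept their sign in all 13 alternatives that gave a value. Near the floor, counts limit what could be seen: the 15 untested genes had 3 to 19 counts in all.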

Other observations

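Ratios of related genes within a library were computed for 7 pairs after the values were seen and were not tested. In 2 of the 7 the groups did not overlap. The ratio of LRP6 to LRP5 in TPM was 0.768, 0.719 and 0.808 in the OE-NC libraries and 0.859, 0.898 and 0.923 in the OE-circSHPRH libraries. That of LEF1 to TCF7L2 was 1.62, 1.44 and 1.39 in OE-NC and 1.14, 1.22 and 1.27 in OE-circSHPRH. These are the 2 pairs without overlap. For LRP6 and LRP5 this follows from the separation of both genes, on opposite sides, reported above. LEF1 was also separate by itself. The share of separate ratios over other pairs of genes was not computed. The ratio of DKK1 to DKK2 was 4.71, 4.87 and 4.88 in OE-NC and 4.78, 4.48 and 4.82 in OE-circSHPRH, and that of ROR1 to ROR2 was 3.0, 2.88 and 3.06 in OE-NC and 3.05, 3.04 and 2.89 in OE-circSHPRH. These overlapped, as did the ratios of LGR5 to LGR4 (97.1 to 119 over the 6 libraries), AXIN1 to AXIN2 (5.47 to 8.46) and FZD2 to FZD7 (1.82 to 2.52).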
